A study of Mus musculus and Rattus norvegicus with 80 samples.

Results

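UID-5687 is a single annotated full-length L1 locus on the plus strand of mouse chromosome 5, 1 of the 17019 different L1 loci that were counted in this series. It was chosen by its measured read counts, which were high in livers and brains, so its levels across organs are given here as a description with no test between organs. Tests between ages and sexes are given below, but they draw on the same read counts by which the locus was chosen and are not independent of that choice. Cytoplasmic, polyadenylated RNA from C57BL/6 mice was sequenced in 68 strand-specific libraries, each from 1 organ of 1 mouse. Males aged 1.9-3.6 months (mo), 7.6 mo, 12.8 mo or 22.3 mo gave 3 testes and 3 livers per age, 3 brains each at 7.6 and at 12.8 mo, and 2 lungs at 7.6 and 3 at 12.8 mo. Female mice gave 3 brains, 3 lungs, 3 ovaries and 1 uterus at 2.2-3.2 mo, 4 brains, 4 lungs, 4 ovaries and 3 uteri at 8-8.7 mo, and 2 of each of these organs at 16.5 mo. The labels name no transgene and no treatment, and organs with the same mouse number came from the same animal.

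L1 elements are retrotransposons that copy themselves through an RNA. A full-length element carries its own promoter at its upstream end, and RNA that starts there can be translated and copied back into DNA. Most L1 sequence in cellular RNA does not arise in this way but is carried in transcripts of neighboring or surrounding genes, and such RNA is called background or passive transcription. A locus where reads pile up in a small stretch, rather than along the whole element, is a typical sight of background, and loci of this kind are set aside when L1 expression is curated. Processed pseudogenes are a related kind of copy. They are intronless copies of cellular mRNAs that the L1 machinery has written into the genome.

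The L1 body of UID-5687 spans chr5:95857387-95861682 on GRCm38 (mm10), a length of 4296 bp, and the locus is on the authors' list of non-intact elements, those without intact reading frames. Reads were not counted in the body alone. In the 56 libraries of all ages except 12.8 mo the counting window was chr5:95856687-95862682, which adds 700 bp upstream and 1000 bp downstream. In the 12 libraries of 12.8 mo the window was chr5:95857087-95862182, with 300 bp upstream and 500 bp downstream, so 900 bases were counted at the other ages only.

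A single annotated gene overlaps these windows. Gm5559 is a processed pseudogene in GENCODE release M21, on the same strand as UID-5687, at chr5:95861714-95862715. It begins after a gap of 31 bp from the end of the L1 body, so none of it lies in the element itself and it fills most of the downstream flank. The longer window holds 969 of its 1002 bases and the shorter window the first 469 of them. Its sequence aligned along its whole length, with no gap and 99.9% identity, to the coding sequence of Gapdh (positions 93 to 1094 of the transcript Gapdh-201). Gapdh encodes glyceraldehyde-3-phosphate dehydrogenase, a glycolytic enzyme made in abundance by every organ sampled.

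**Figure D1:**
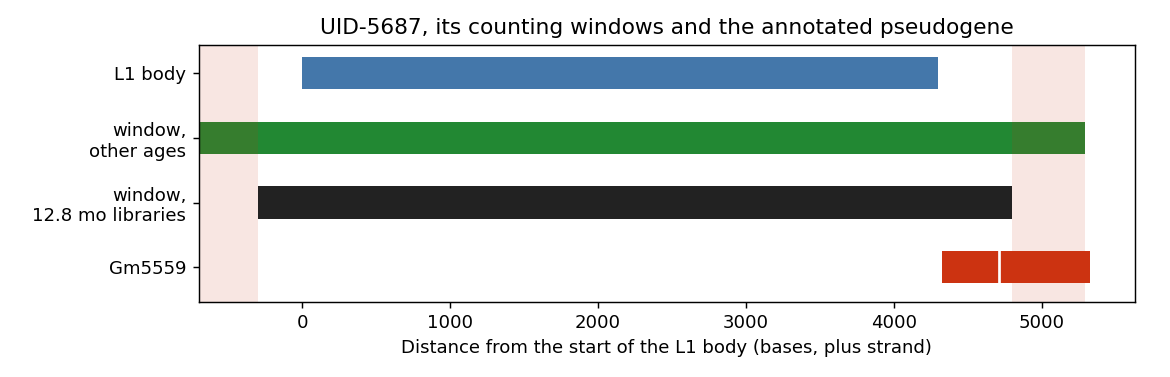
Positions of the L1 body, the counting window of the 56 libraries of other ages, the counting window of the 12 libraries of 12.8 mo and the pseudogene Gm5559, in bases from the start of the L1 body. Shaded stretches are the 900 bases in the longer window only, and the white line in Gm5559 marks its single difference from Gapdh. The L1 body and Gm5559 do not overlap, and 500 bases of Gm5559 lie in the downstream shaded stretch.

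The first pair of sequences shows the only base at which Gm5559 differs from the Gapdh coding sequence, T385A (Gapdh base, position counted from 1 at the first base of Gm5559, Gm5559 base), in capitals. It lies at position 95862098 of chromosome 5, inside both windows. The Gm5559 stretch is chr5:95862068-95862128 and the Gapdh stretch is positions 447 to 507 of Gapdh-201, both from the GENCODE M21 transcripts.
Gm5559: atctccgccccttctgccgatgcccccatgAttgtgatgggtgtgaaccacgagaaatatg
Gapdh-201: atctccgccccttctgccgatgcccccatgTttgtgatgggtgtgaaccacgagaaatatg
The next stretch, chr5:95862033-95862332 on the plus strand, is shown because the shorter window ends inside it. Capitals mark the bases that were counted in the longer window only.
Gm5559: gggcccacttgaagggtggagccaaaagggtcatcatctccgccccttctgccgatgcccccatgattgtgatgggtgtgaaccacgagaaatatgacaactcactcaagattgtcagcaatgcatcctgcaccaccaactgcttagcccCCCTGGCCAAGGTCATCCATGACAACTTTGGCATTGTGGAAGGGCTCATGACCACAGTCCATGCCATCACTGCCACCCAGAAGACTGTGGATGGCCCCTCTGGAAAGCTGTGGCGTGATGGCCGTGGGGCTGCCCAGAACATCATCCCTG

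Gm5559 is 1 of many such copies. Among the annotated transcripts, those of 399 other genes aligned to it, 262 of them over at least 90% of its length. Gapdh and 7 pseudogenes (Gm10359, Gm12671, Gm7336, Gm12033, Gm12070, Gm12537 and Gm2606) aligned to all 1002 bases with at most 3 differences, and T385A was among the differences of each of them. The authors kept a read pair only where it had a single alignment with up to 3 mismatches per read. Reads in this window are therefore uncertain as to their source, and which base of the window each read covered is not in the counts used here. A second L1 window, that of UID-5731 on chromosome 5, held 679 bases of another pseudogene of this family on its own strand (Gm4960, 87.7% identical to Gm5559). It had at most 12 reads in any of the 56 libraries, with a median of 0, whereas UID-5687 had 324 to 12008 with a median of 1037.5.

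The reads at UID-5687 covered few bases. In the 56 libraries with the longer window, 325 to 917 of its 5996 bases were covered by at least 1 read, with a median of 632.5, which is 5.42% to 15.3% of the window. No library covered more bases than the 969 that Gm5559 has in the window. In 39 of the 56 libraries the covered bases exceeded the 500 of the downstream flank that only the longer window holds, and in 1 of them, the brain of mouse 1338, they exceeded all 900 bases unique to that window. More reads did not bring much more coverage. Livers with 4081 to 11506 reads covered 491 to 679 bases, and 9 female brains with 869 to 4412 reads covered 720 to 917 bases. Low coverage at a locus with many reads was not peculiar to UID-5687. Of the loci with at least 100 reads in the same library, a median of 31.9% over the 56 libraries had a smaller covered fraction than UID-5687.

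**Figure D2:**
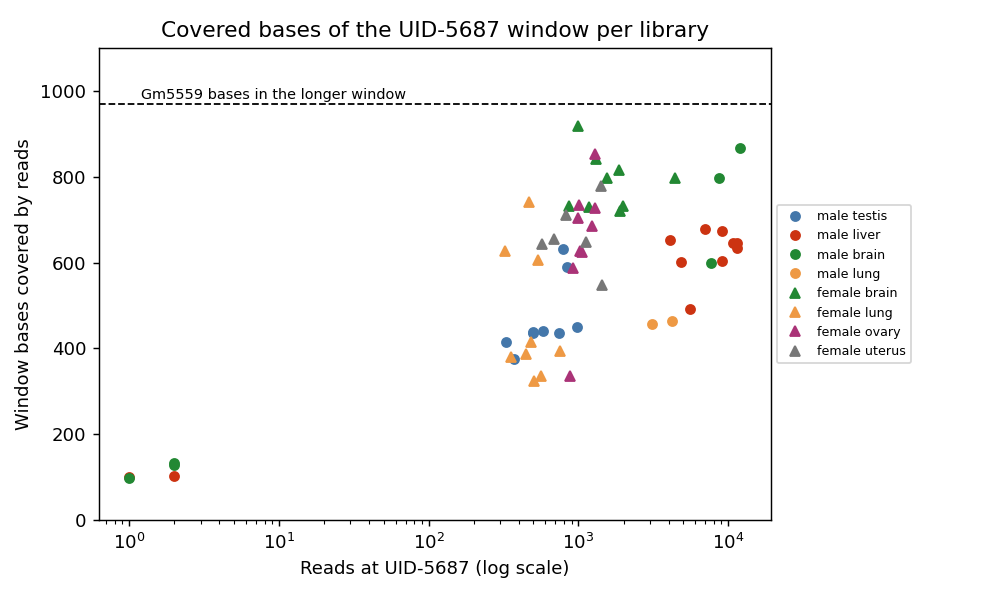
Bases of the counting window covered by at least 1 read (vertical axis) against the reads counted at UID-5687 (horizontal axis, log scale), 1 point per library, circles for males and triangles for females. The libraries without a read are left out. The 56 libraries with the longer window lie between 325 and 917 covered bases, all under the dashed line at 969, and the points with 1 or 2 reads are livers and brains of 12.8 mo.

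In male mice of ages other than 12.8 mo, UID-5687 supplied a large part of all L1 reads of livers and brains, and very little in testes. At 7.6 mo the 3 brains had 12008, 8718 and 7690 reads at this locus, or 29.9%, 28.9% and 30.7% of their L1 reads. The 3 livers of the same mice (1209, 1303 and 1305) had 5576, 6984 and 4838 reads, or 17.4%, 18.1% and 17.1%. Each brain therefore exceeded each liver in share, with mean shares of 29.8% ± 0.908 (SD, n = 3) and 17.5% ± 0.520 (SD, n = 3). Testes of these mice had 498, 372 and 330 reads, or 0.528%, 0.475% and 0.620%, below every other organ. The 2 lungs had 3078 and 4188 reads, or 2.80% and 4.76%.

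The picture changed when reads were set against all mapped reads of the library, as reads per 1000000 mapped reads (RPM), instead of its L1 reads. Brains of 7.6 mo males then had 256 ± 17.3 RPM (SD, n = 3) and livers 276 ± 14.7 (SD, n = 3), with overlapping ranges. The lungs of mice 1209 and 1303 had 163 and 244 RPM, nearer to the brains and livers than by share. All L1 loci together reached 5839 and 5127 RPM in these lungs, whereas they reached 805 to 921 RPM in the brains. Testes had 11.9 ± 1.15 RPM (SD, n = 3) at UID-5687. In each of the 9 mice with both organs in the longer window, the liver had a higher RPM than the testis, by 4.18-fold to 26.7-fold with a median of 17.5. The brain had 20.8-fold to 21.8-fold more than the testis in 3 of 3 mice. In bulk RNA, fewer cells of a type and less RNA per cell cannot be told apart, and gene counts that could check the organs against their markers were not analysed here.

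Female organs had lower mean levels than male livers and brains, and the brain again had the highest mean share. The 3 brains of 2.2-3.2 mo (mice 1534, 1535 and 1540) had 869, 1305 and 1864 reads, or 8.74%, 13.6% and 11.8% of L1 reads. The 4 brains of 8-8.7 mo (mice 1324, 1325, 1337 and 1338) had 1170, 4412, 1558 and 998 reads, or 5.74%, 19.0%, 10.3% and 7.02%. The 2 brains of 16.5 mo had 1991 and 1900 reads, or 8.70% and 8.86%. The brain of mouse 1325 stood highest of the 9, with 114 RPM where the other 8 had 29.5 to 68.5 RPM. Its plus-strand file is also the only one whose name lacks the tag for duplicate removal, and UID-5687 is on that strand. The plus-strand loci held 61.9% of the L1 reads of this library, within the 53.4% to 63.9% of the other 8 female brains. Such a strand total cannot show whether duplicates remained at a single locus. The mapped reads of this library rest on 8 of its 15 listed loci. The mean over female brains was 10.4% ± 4.00 (SD, n = 9) with this library and 9.35% ± 2.53 (SD, n = 8) without it.

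Ovaries, uteri and female lungs followed. The 9 ovaries had 872 to 1297 reads, with a lowest, median and highest share of 2.71%, 3.74% and 10.5%. The 6 uteri had 567 to 1430 reads and shares of 1.77%, 2.38% and 6.03% in the same order. The 9 female lungs had 324 to 753 reads and shares of 1.95%, 2.35% and 3.29%. The highest RPM in each of these organs came from its library with the fewest mapped reads. The ovary of mouse 1535 (11.7 M mapped reads) had 111 RPM, against 21.3 to 41.7 RPM in the other 8 ovaries (30.5 to 41.0 M). The uterus of mouse 1325 (15.5 M) had 92.2 RPM against 25.5 to 39.9 RPM in the other 5 (19.4 to 35.3 M), and the lung of mouse 1535 (8.45 M) had 38.3 RPM against 10.4 to 34.0 RPM in the other 8. The part of depth in these values was not tested. Within mice, the brain had a higher share than the lung in 11 of 11 mice of both sexes, than the ovary in 9 of 9 and than the uterus in 6 of 6. By RPM, the brain was higher than the lung in 11 of 11 mice, than the ovary in 7 of 9 and than the uterus in 5 of 6.

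**Figure D3:**
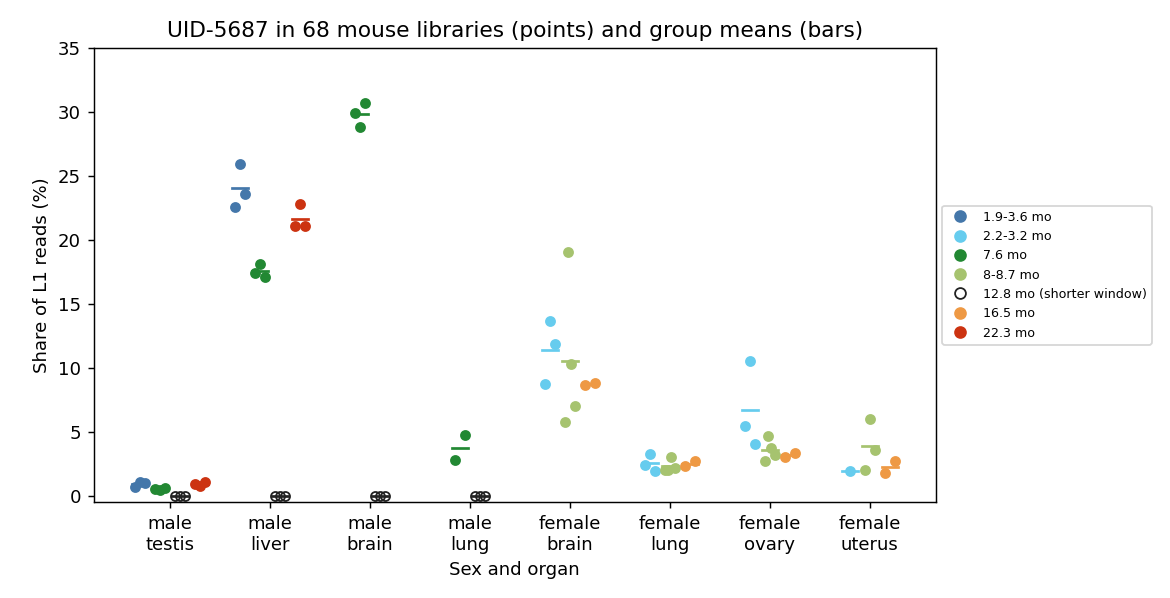
Share of the library's L1 reads at UID-5687 (percent, vertical axis) by sex and organ, 1 point per library and a bar at each group mean, colored by age. Male brains of 7.6 mo lie between 28.9% and 30.7% and male livers between 17.1% and 25.9%, whereas the 12 libraries of 12.8 mo (open circles, shorter window) lie at or near 0.

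In the longer window the order of mean shares was male brain (29.8%), male liver (21.1%), female brain (10.4%), ovary (4.54%), male lung (3.78%), uterus (3.03%), female lung (2.44%) and testis (0.804%). Male brain and male liver did not overlap, and neither did female lung and testis, while each other pair of neighbors in this order overlapped. By mean RPM the order was male brain (256), male liver (254), male lung (204), female brain (51.4), uterus (42.1), ovary (39.8), female lung (23.0) and testis (16.7), and only male lung and female brain failed to overlap among the neighbors. Counting error was small beside these differences. The widest 95% Wilson interval of a share in these libraries was 1.38 percentage points. These intervals hold counting error alone and treat each read as independent, although both mates of a pair were counted.

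Among all L1 loci UID-5687 ranked first by reads in 3 of 3 brains of 7.6 mo, and between 1 and 3 in the 9 livers with the longer window. Over the 56 libraries its rank ran from 1 to 15, with a median of 4. By mean RPM, UID-3342 on chromosome X and UID-13571 on chromosome 4 stood around it. The study named these as the background loci with the highest FPKM in every organ. By mean RPM in the longer window, pooled over ages, these loci held ranks 1 and 2 in female brains only. UID-6793 ranked 2 in testes, ovaries, uteri and the lungs of both sexes. UID-5687 ranked 1 in male brains, and in male livers UID-5687 and UID-6793 ranked 2 and 3, above UID-13571. UID-3342 followed it in male brains with 149 ± 7.07 RPM (SD, n = 3) and led it in male livers with 302 ± 103 RPM (SD, n = 9). Directly below it came UID-6793 in male livers and female brains, UID-6930 in testes, UID-11251 in male lungs, UID-10972 in female lungs, UID-9752 in ovaries and UID-914 in uteri. Directly above it came UID-59 in testes, UID-13571 in the lungs of both sexes, in ovaries and in uteri, and UID-3342 in female brains.

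Several of these high loci share the feature found at UID-5687. The window of UID-3342 holds Rps24-ps3, that of UID-13571 holds part of Gm12669 and that of UID-6793 holds Gm4332, each a processed pseudogene on the strand of the L1 locus. Their closest protein-coding transcripts were those of Rps24 (99.0% identity) and Rps20 (99.7%), both ribosomal proteins, and of Glrx3 (99.1% for Gm12669), a glutaredoxin. UID-914 overlaps a pseudogene closest to Hdac1, a histone deacetylase, UID-10972 one closest to the ribosomal protein gene Rps25, and UID-11251 one closest to Rps7. Of all 17019 windows, 130 (0.764%) overlapped a processed pseudogene on their own strand. Of the 12 loci with at least 1000 reads in any library with the longer window, 6 did (50.0%), UID-5687 included. These 6 were among the 8 loci that had under 20% of the window covered in the library with most reads, while none of the 4 loci with at least 80% covered overlapped one. The limits of reads and coverage were set after the values had been seen, and no test was made of these counts.

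Age was tested over mice, first in livers. The libraries of 12.8 mo differ from all others in the window, so the other ages are given first. The shares were 22.6%, 25.9% and 23.6% in the livers of 1.9-3.6 mo (mice 1071, 1110 and 1111), 17.4%, 18.1% and 17.1% at 7.6 mo and 21.1%, 22.8% and 21.1% at 22.3 mo. The livers of 7.6 mo lay below all the others. Over these 9 livers the exact permutation test of the variance ratio between ages gave p = 0.00714 (adjusted p = 0.0357 over the 10 permutation tests). In this adjustment the other tests kept the 12.8 mo libraries, among them the testes at p = 0.000714 (exact permutation). The adjusted value therefore depends on those tests too. The adjusted p rose to 0.0536 without mouse 1110, 1111, 829 or 831. On RPM the same test gave p = 0.686 (exact permutation, adjusted p = 0.802). Leaving out single mice and the RPM scale within these ages were settings added after the data had been seen. The values were 305, 97.6 and 257 at 1.9-3.6 mo, 265, 292 and 270 at 7.6 mo, and 231, 276 and 295 RPM at 22.3 mo. The livers of 7.6 mo therefore stood apart by share and not by RPM. Their L1 reads as a whole (1522 to 1614 RPM) exceeded those at 1.9-3.6 mo (376 to 1349 RPM) and at 22.3 mo (1097 to 1397 RPM). The low value of 97.6 RPM came from mouse 1110, whose liver also had the 376 RPM of all L1 reads. Both values rest on the same number of mapped reads, which for this liver was recovered from 1 listed locus. It could therefore not be checked against a further locus.

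The quasi-likelihood test of edgeR on all L1 loci, with mapped reads as library sizes, did not detect a change of UID-5687 between these ages in livers. The fit held the livers of all ages. The libraries with the shorter window therefore entered the filter and the spread behind each SE. From 1.9-3.6 to 7.6 mo the log2 fold change was 0.33 ± 0.53 (SE), with an adjusted p of 0.913 in edgeR, beside a median of 0.40 over all loci tested. In that comparison edgeR called 0% of the 99 loci tested, with 14 loci at an unadjusted p under 0.05, and DESeq2 called none of 98. From 7.6 to 22.3 mo the log2 fold change was -0.05 ± 0.53 (SE), with an adjusted p of 1 in edgeR, where 2.02% of 99 loci were called. Both directions turned under TMM normalization on the L1 count (-0.46 and 0.29), so no direction is given for the liver.

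In testes an age difference of the share did not pass the test within these ages. The shares were 0.726%, 1.09% and 1.04% at 1.9-3.6 mo, 0.528%, 0.475% and 0.620% at 7.6 mo, and 0.931%, 0.739% and 1.09% at 22.3 mo. The testes of 7.6 mo lay below all others here too. The exact permutation test over these 9 testes gave p = 0.0393, which did not pass after adjustment (adjusted p = 0.121), and p = 0.207 on RPM (exact permutation, adjusted p = 0.296). In edgeR the log2 fold change from 7.6 to 22.3 mo was 0.67 ± 0.34 (SE) with an adjusted p of 0.739. The median over all loci was -0.21, and 0.0923% of 1084 loci were called. This fit held the testes of all ages, those with the shorter window included. With only the groups compared, the log2 fold change was 0.67 ± 0.23 (SE, adjusted p = 0.202 in edgeR), and 2 of 762 loci were called. Whether the change from 7.6 to 22.3 mo differed between livers and testes was tested as an interaction. The difference, liver minus testis, was -0.72 ± 0.26 (SE) on the log2 scale with an adjusted p of 0.584 in edgeR, and it called 0% of 795 loci, with 36 at an unadjusted p under 0.05 and 2 called by DESeq2.

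No age difference was detected in female organs. The exact permutation tests of the share over 3 ages gave p = 0.765 in brains, p = 0.802 in lungs, p = 0.0897 in ovaries and p = 0.467 in uteri, and adjusted p of 0.802, 0.802, 0.143 and 0.583. The ovaries of 2.2-3.2 mo had shares of 5.47%, 10.5% and 4.05%, those of 8-8.7 mo 2.71%, 4.68%, 3.74% and 3.21%, and those of 16.5 mo 3.07% and 3.38%, with overlap between the first and the second age. In female brains the log2 fold change from 2.2-3.2 to 8-8.7 mo was 0.21 ± 0.43 (SE, adjusted p = 0.980 in edgeR) and -0.42 without the brain of mouse 1325. From 8-8.7 to 16.5 mo it was -0.17 ± 0.48 (SE, adjusted p = 0.862 in edgeR) and 0.46 without that brain, beside a median of 0.80 over all loci. In these comparisons edgeR called 0% of 166 and 0% of 199 loci, with 4 and 22 loci at an unadjusted p under 0.05. DESeq2 called 1 and 0.

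**Figure D4:**
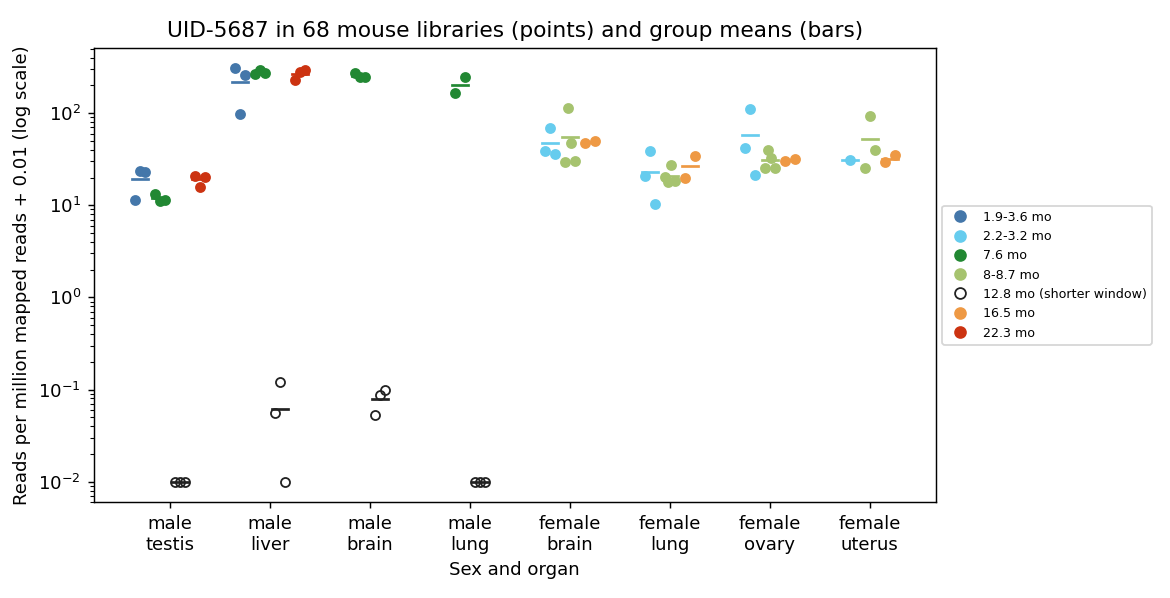
RPM of UID-5687, plus 0.01, on a log axis, by sex and organ, with 1 point per library and a bar at each group mean. Male livers, brains and lungs of ages other than 12.8 mo lie between 97.6 and 305, female organs between 10.4 and 114 and testes between 11.2 and 23.3. The 12 libraries of 12.8 mo (open circles) lie at or under 0.110.

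By RPM at the nearest ages, brains differed between the sexes. The locus was chosen for its high reads in livers and brains, so the edgeR test below is not independent of that choice. At 7.6 mo the male brains had 275, 244 and 247 RPM, and at 8-8.7 mo the female brains had 29.5, 114, 47.0 and 30.3 RPM, so that each male brain was above each female brain. The log2 fold change, female over male, was -2.21 ± 0.37 (SE) with an adjusted p of 0.00058 in edgeR, in a comparison that called 3.96% of 278 loci, and -2.84 without the brain of mouse 1325. It stayed below 0, with an adjusted p of at most 0.0164, in the 11 alternative settings tried. The tests of the share that had been planned did not pass. With all ages, the 3 male brains of 12.8 mo included, the log2 difference of means, female minus male, was 4.45 (exact permutation, p = 0.0484, adjusted p = 0.121). At the nearest ages alone it was -1.66, with p = 0.0571 (exact permutation, adjusted p = 0.143). When all ages except 12.8 mo were used, a setting added after the data had been seen, it was -1.60 (3 male and 9 female brains, exact permutation p = 0.00455, adjusted p = 0.0152). The direction of the difference in log2 share thus rests on whether the 12.8 mo libraries are included.

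Other L1 reads moved with sex as well, though not all to the same extent. Mean RPM in male brains of 7.6 mo were 4.62-fold those of female brains of 8-8.7 mo at UID-5687, 1.88-fold at UID-3342, 1.06-fold at UID-13571 and 1.71-fold for all L1 reads. In lungs of these ages the ratio was 9.71-fold at UID-5687, 9.01-fold at UID-3342, 2.66-fold at UID-13571 and 6.03-fold for all L1 reads. The difference in the share of UID-5687 in lungs without the 12.8 mo libraries (likewise a setting added later), female minus male, was -0.60 on the log2 scale (2 male and 9 female lungs, exact permutation p = 0.0545, adjusted p = 0.136). With the 3 male lungs of 12.8 mo it was 7.10 (exact permutation p = 0.0265, adjusted p = 0.0883). The study used 2 sequencing platforms without saying which library was run on which, so platform and sex cannot be told apart here.

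At 12.8 mo, in the shorter window, UID-5687 was all but empty. The 3 livers (mice 899, 900 and 901) had 1, 2 and 0 reads, the 3 brains 1, 2 and 2 reads, and the 3 testes and 3 lungs none. Where reads were present they covered 98 to 134 bases. Summed over the group and divided by mapped reads, livers of 7.6 mo exceeded those of 12.8 mo by 5930.5-fold (95% exact interval for counting error 2029 to 28760.2), and brains by 3709-fold (1589 to 11424). Against 3 counts over the group, the level was at least 304-fold higher in testes and at least 4424-fold higher in lungs of 7.6 mo. In the libraries without a read, 3 reads would be at most 0.0110% of the L1 reads.

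The edgeR tests from 7.6 to 12.8 mo gave adjusted p of 2.12e-09 in livers, where 40.4% of 99 loci were called, and 7.50e-12 in male brains, where 55.8% of 199 were called. The calls were 25 higher and 15 lower in livers (35 and 12 under TMM), and 101 higher and 10 lower in brains (62 and 29 under TMM). UID-5687 was among the lower loci in each of these. Whether this change differed between livers and male brains could not be decided, since these organs held only 0 to 2 reads per library at 12.8 mo. The difference, liver minus brain, was -0.62 ± 0.70 (SE) on the log2 scale (adjusted p = 0.9997 in edgeR, 0.837% of 239 loci called). With the 12.8 mo libraries included, the exact permutation tests of the share over ages gave p = 0.00013 in livers (adjusted p = 0.0013, but 0.0623 on RPM), p = 0.000714 in testes (adjusted p = 0.00357), and p = 0.1 in male brains and in male lungs (adjusted p = 0.143), the smallest that 3 brains against 3 or 2 lungs against 3 allow. The 12.8 mo libraries share both their age and their window, so age and window cannot be told apart for this locus.

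UID-3342 and UID-13571 still had many reads at 12.8 mo. UID-3342 had 442 ± 128 RPM (SD, n = 3) in livers of 12.8 mo against 402 ± 33.0 at 7.6 mo, and 293 ± 4.67 against 149 ± 7.07 in brains. UID-13571 had 87.4 ± 18.8 in livers of 12.8 mo against 169 ± 11.8 at 7.6 mo, and 82.7 ± 5.89 against 129 ± 4.39 in brains. Of the loci with at least 10 reads in each 7.6 mo library of an organ, those with at most 2 reads in each 12.8 mo library were 9 of 31 in livers, 6 of 79 in brains, 8 of 51 in lungs and 11 of 435 in testes, UID-5687 among them in each organ. Few reads at 12.8 mo were therefore not peculiar to UID-5687. Its fall in log2 (mean RPM + 0.1) ranked 1 among these loci in livers, brains and lungs, and 2 in testes, counted from the largest fall. For a locus left with at most 2 reads, the size of the fall depends mostly on its level at 7.6 mo. UID-5687 was chosen by its read counts, so this rank is no separate result. Over all 31, 79, 51 and 435 of these loci, the median change of log2 (mean RPM + 0.1) from 7.6 to 12.8 mo was -1.36 in livers, 0.68 in brains, -0.94 in lungs and -0.037 in testes.

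The L1 loci nearest to UID-5687 had almost no reads. UID-14926, 28437 bp upstream on the same strand, had none in any of the 68 libraries. UID-5547, 20850 bp downstream on the minus strand, had reads in 4 libraries and at most 6. After Gm5559, the nearest annotated genes were the snRNA gene Gm25937 at 4651 bp downstream and the pseudogene Gm42714 at 19236 bp upstream. The nearest protein-coding genes were E330014E10Rik at 51978 bp upstream and Cxcl13, a chemokine that attracts B cells, at 94268 bp downstream.

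Few loci followed the pattern of UID-5687 closely. Over the 68 libraries the highest Spearman correlations of log2 (RPM + 0.1) among 386 loci were 0.53 for UID-5714 on chromosome 5, 0.51 for UID-9384 on chromosome 1, 0.46 for UID-4935 on chromosome 18, 0.39 for UID-11251 on chromosome 19 and 0.36 for UID-10972 on chromosome 12, against a median of -0.37 over all. The points share depth and, at 12.8 mo, the shorter window. Loci with at least 10 reads in at least 12 libraries were compared, so loci read mainly in testes, where UID-5687 is low, could enter. In the 56 libraries with the longer window, 163 loci were compared, with a median of -0.23, and the order changed. UID-4935 led with 0.67, followed by UID-2739 on chromosome 6 with 0.67 and UID-11915 on chromosome 7 with 0.46. UID-4935 and UID-11915 had few reads, with medians of 10 and 9 in these libraries. The window of UID-4935 overlaps only the miRNA gene Gm26119, on the other strand, and that of UID-11915 overlaps no annotated gene. The windows of UID-5714 and UID-2739 overlap processed pseudogenes on their own strand, closest to Rpl28, a ribosomal protein gene, and to Atp5l, an ATP synthase subunit gene, while UID-9384 lies within Atp6v1h, a gene for a proton pump subunit.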

How the data were processed

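The deposited files hold counts of reads per annotated L1 locus. The authors aligned read pairs with Bowtie 0.12.8 to mm10, kept single alignments with up to 3 mismatches, removed duplicates, separated strands and counted both mates with bedtools. The deposited fraction of each window covered by reads was used to describe coverage. The deposited files also list covered bases and the window length. Entries listed more than once (431 of 17450) were used once. UID-5687 and all lists were chosen with earlier results of these data known.

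A share is the reads at the locus divided by all L1 reads of the library (9567 to 109959). Mapped reads per library (8.45 to 51.4 M) were recovered from the counts and the authors' tabulated FPKM values. They rest on a minority of loci in 4 libraries of 12.8 mo. In the livers of 1.9-3.6 mo only 1 (mouse 1110) or 2 loci (mice 1071 and 1111) were listed. At 22.3 mo, 5 libraries coincided with a table column named for another mouse, and that column was used. RPM is reads per 1000000 of them. Replicates are separate mice, so p-values measure the spread between mice.

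Age and sex were tested on log2 of (reads + 0.5) over L1 reads by exact permutation (two-sided for sex), with Benjamini-Hochberg adjustment over 10 tests. edgeR 4.0.16 in R 4.3.3 compared loci that reached 10 reads in a number of libraries equal to the size of the smaller group, at 0.05, with mapped reads as library sizes. Its SE is the fold change over the root of F. The scripts were tested on simulated data. Organs of the same mouse come from the same animal per the labels; deviations of livers and testes of the same mouse correlated by -0.47 to 0.512 over 17 to 23 loci. Alternatives were TMM, DESeq2 1.42.0, no filter, only the groups compared, other scales, each mouse left out, and the animal as a block. Windows were annotated with GENCODE M21, and transcripts aligned with BLAST 2.17.0. Other loci are named when they were background in the study, ranked next to UID-5687, lay nearest to it or correlated best with it; UID-5731 and its pseudogene were named after their values were seen. Rat libraries and the window's genome sequence beyond transcripts were not used here.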

Additional observations from a re-analysis of the deposited data

Results flagged for a closer look

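Dixon's test was applied to 4 measures of UID-5687 in the 3 groups of 4 libraries (female brains, lungs and ovaries of 8-8.7 mo), and 2 of the 12 values lay far from the other 3 libraries, where chance flags about 1 in 20. The brain of mouse 1325 had 4412 reads against 998 to 1558 in the others. Its share and its reads per mapped read did not pass the limit. The lung of the same mouse had 740 covered bases against 325 to 394 in the other 3 lungs, with 467 reads, which is fewer than in each of the others. What set these libraries apart was not tested.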

How the results depend on the processing

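Of 260 recomputed values, 222 kept direction and side of the threshold, 17 lost significance, 2 gained it and 19 turned. In livers, the age difference of the share lost its call on RPM (adjusted p = 0.0623) and on that scale without the 12.8 mo libraries (0.802), a setting added after the data had been seen. In testes, it lost its call without the 12.8 mo libraries (0.121), and on RPM without them (0.296). Over all settings that left out 1 mouse, with or without the 12.8 mo libraries (the latter added likewise), adjusted p ranged from 0.000649 to 0.0536 in livers and from 0.00162 to 0.184 in testes, and without the 12.8 mo libraries from 0.0179 to 0.0536 and from 0.0883 to 0.184. The sex difference in brains turned from 4.45 to -4.48 percentage points on the linear share, -1.66 at the nearest ages, -1.60 without 12.8 mo and -2.44 without 12.8 mo on RPM. In lungs it turned from 7.10 to -0.68, -0.60 and -3.21 under the last 3 of these settings, and it ranged from 5.79 to 9.12 when 1 mouse was left out, passing the threshold without mouse 1209 or 1303. The linear share keeps the 12.8 mo libraries. The other settings that turned these differences leave them out, and with them both an age and the shorter window, which cannot be told apart.

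For the edgeR log2 fold changes, TMM and DESeq2 turned livers of 7.6 against 1.9-3.6 mo (-0.46 and -0.45), livers of 22.3 against 7.6 mo (0.29 and 0.20) and the liver minus brain difference (1.02 and 0.29), and the cause was not tested. Mapped reads by column name turned livers of 22.3 mo to 0.13. Leaving out 1 mouse gave -0.028 to 0.64 and -0.12 to 0.049 for these liver contrasts, -0.42 to 0.56 and -0.38 to 0.46 for the female brain contrasts, and -1.52 to 0.20 for liver minus brain. None of these turned values passed the threshold.

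With the animal as a replicate block, liver minus brain was -0.59 and liver minus testis -0.72, and the block changed no call of UID-5687, with 1 and 0 loci called against 2 and 0. In brains of 12.8 mo, TMM moved the median log2 fold change of all loci from 1.57 to 0.26. Numbers of loci called moved by over 1.5 times in livers of 22.3 mo (2, against 0 to 18 over the alternatives), testes of 22.3 mo (1, against 0 to 8), brains between sexes (11, against 6 to 23) and liver minus brain (2, against 0 to 5). Where no locus was called, the alternatives gave at most 2. Age could not be tested in male brains and lungs without 12.8 mo, since 1 age group is left. Depth limits the 12.8 mo libraries, where 3 reads correspond to at most 0.0110% of L1 reads.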
